A study of Mus musculus with 12 samples.

Results

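The genes described here are 46 genes of the ATF4 programme of amino acid and stress metabolism, out of 57010 genes in the table. They were chosen by symbol: Atf4 itself and genes known as its targets in stress signalling, serine and one-carbon synthesis, amino acid transport and tRNA charging. NE-4C cells, a neural progenitor line from embryonic mouse brain that was immortalized by deletion of p53, were profiled by bulk RNA-Seq as wildtype (WT) cells and as Faf2 knockout (KO) cells, each untreated (NO) or after induction with all-trans retinoic acid (RA). The question was how loss of FAF2, an adaptor protein of endoplasmic reticulum (ER) associated degradation, alters progenitor cells and their differentiation. There are 12 libraries, 3 replicates from independent passages in each of the groups WT NO, WT RA, KO NO and KO RA. RA groups were exposed to 1 µM RA for 24 h and harvested at day 3, so RA cannot be told apart from the days in culture after plating. All groups were grown in MEM with fetal bovine serum, nonessential amino acids, GlutaMAX and penicillin-streptomycin, a medium that supplies several of the amino acids whose synthesis the genes serve. The KO line was made by CRISPR with 2 sgRNAs that remove exon 4 of Faf2 and was grown from picked colonies. Genotype and the history of that line therefore cannot be told apart, and p-values measure the spread between passages of 1 line per genotype. In bulk samples, fewer cells of a type and less RNA per cell cannot be told apart either.

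ATF4 is a bZIP transcription factor whose mRNA is translated when the initiation factor eIF2 is phosphorylated on its alpha subunit. The kinases that do this answer to separate stresses: PERK to misfolded protein in the ER, GCN2 to uncharged tRNA, PKR to double-stranded RNA and HRI to heme shortage. ATF4 forms dimers with C/EBP proteins such as CHOP on C/EBP-ATF response elements (CAREs) and induces genes for amino acid uptake, amino acid synthesis, tRNA charging and feedback on eIF2 phosphorylation. Since ATF4 is controlled mainly by translation, the level of Atf4 mRNA does not by itself report its activity.

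CARE-like sequences were counted in the promoters of the 46 genes, taken from 500 bases before to 100 bases after the canonical transcription start of the gene (GENCODE, GRCm39). The core TGATGNAA, on either strand, occurred in 17 of 46 promoters (37.0%), against 7.71% of 21757 protein-coding promoters and 5.25% of the 13347 promoters of tested genes. Its strict form TGATGCAA, a subset of those matches, occurred in 12 (26.1%), against 1.69% of all promoters. ATTGCATCA, which overlaps TGATGCAA read on the other strand, occurred in 3 (Ddit3, Fgf21 and Pycr1, 6.52%, against 0.386%). The cAMP response element TGACGTCA occurred in 1 (Ppp1r15a, 2.17%, against 2.85%). A match describes letters in the window and shows no binding. The genes were chosen as known ATF4 targets, so their higher share of matches is not separate evidence about the list. The windows shown next are those of the CHOP gene and of 5 genes that passed a test in any of the comparisons given further on, for matches upstream of the start, with 30 bases each on the strand of the gene, 5′ to 3′, from GRCm39. Lars also passed a test and held a match 474 bases upstream of the start, which meets the core but not its strict form, and its window is not shown. Capitals mark the match to TGATGNAA or, where it lies on the other strand, to its reverse complement.
Ddit3, chr10:127126350-127126379, strand +: gttgccaaacaTTGCATCAtccccgccccc
Chac1, chr2:119181519-119181548, strand +: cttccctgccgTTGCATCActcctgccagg
Sesn2, chr4:132238053-132238082, strand -: gtgaagtcccgTTTCATCAcgcagccctaa
Vldlr, chr19:27194209-27194238, strand +: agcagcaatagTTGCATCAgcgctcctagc
Pycr1, chr11:120534659-120534688, strand -: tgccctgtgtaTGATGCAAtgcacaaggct
Pck2, chr14:55777609-55777638, strand +: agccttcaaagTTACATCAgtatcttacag

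The matches lay 199 bases upstream of the start in Ddit3, 159 in Chac1, 256 in Sesn2, 192 in Vldlr, 79 in Pycr1 and 103 in Pck2. Those of Ddit3 and Pycr1 were within an intron of another transcript of the gene, those of Chac1, Vldlr and Pck2 within an exon of another transcript, and that of Sesn2 outside the gene. Ddit3, Chac1 and Vldlr hold the same 8 letters, TTGCATCA, and those of Sesn2 and Pck2 meet only the looser core. Further matches were found in Atf3, Jdp2, Trib3, Ppp1r15b, Fgf21, Gpt2, Slc7a11, Slc1a4, Lars, Cars and Gars. Of the 7 genes that passed the test as lower in KO RA than in KO NO, 3 held a match (Lars, Chac1 and Pycr1), against 17 of all 46 genes (37.0%). Whether a match goes with a change in level was not tested.

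Library totals ran from 17370069 to 30738717 estimated counts. KO RA replicate 3 stood apart: its TMM factor was 0.394 against 0.872 to 1.28 in the other 11 libraries. Its median absolute log2 difference from the other KO RA replicates was 1.22 and 1.20, against 0.211 to 0.474 for the other replicate pairs. It entered the shared estimate of the spread for every comparison, so results that turned on it are given with and without it. Faf2, the deleted gene, was at 50.0, 38.8 and 36.0 CPM in WT NO replicates 1 to 3 and 21.0, 21.7 and 25.4 CPM in KO NO replicates 1 to 3. It was at 35.1, 37.9 and 49.1 CPM in WT RA replicates 1 to 3 and 36.1, 34.3 and 18.7 CPM in KO RA replicates 1 to 3. Untreated KO and WT libraries did not overlap (log2 fold change ± standard error −0.87 ± 0.27, edgeR adjusted p = 0.179, and 0.0111 without KO RA replicate 3). After RA they overlapped (−0.45 ± 0.27, adjusted p = 0.395, and −0.21 ± 0.18, adjusted p = 0.489, without KO RA replicate 3), so total Faf2 counts did not separate the libraries labelled KO RA from WT RA. In KO RA against KO NO the log2 fold change of Faf2 was 0.39 with all libraries and the gene was not called. Without KO RA replicate 3 it was 0.62 and edgeR called Faf2 higher, against 8.48% of all genes. The Faf2 count covers exons outside exon 4 and does not test the deletion itself.

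Levels are given as CPM, counts scaled to a common library total after TMM scaling. The deposited counts were scaled for transcript length, so levels can also be compared between genes. Of the 46 genes, 45 were tested and Fgf21, a secreted hormone, was not, with 0 to 8 counts per library. In WT NO the most abundant were Sars at 449 ± 125 CPM (SD, n = 3), Psat1 at 396 ± 158, Phgdh at 295 ± 36.2 and Atf4 at 219 ± 43.5. These encode the seryl-tRNA synthetase, the aminotransferase and dehydrogenase of serine synthesis, and ATF4 itself. At the other end, Fgf21 was at 0.0493 CPM and Gdf15, a secreted stress hormone, at 0.0657 CPM. Atf4 mRNA was thus the fourth most abundant of the 46 in untreated WT cells, while the stress hormones were near the limit of counting.

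**Figure D1:**
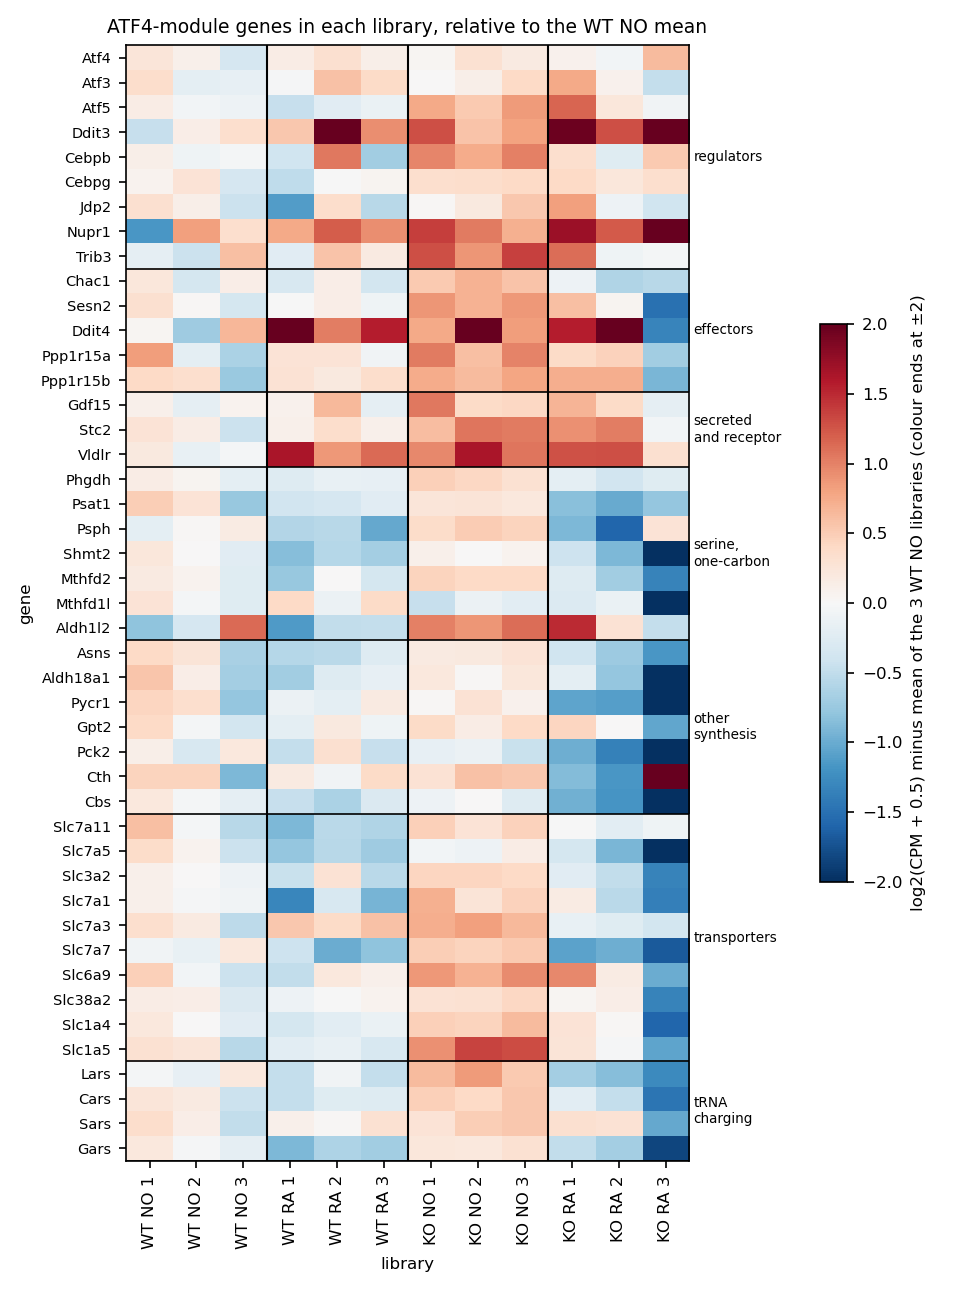
Levels of 45 tested genes (rows, by function) in the 12 libraries (columns), as log2(CPM + 0.5) minus the mean of the 3 WT NO libraries, with the colour scale ending at 2 in either direction. The 3 KO NO columns are mostly red, with medians of 0.43 to 0.53 over the genes, and KO RA replicate 3 is mostly blue with a median of −1.0.

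Within a group, libraries differed in many of the genes together. WT NO replicate 1 was the highest of its group in 35 of 45 genes and WT NO replicate 3 the lowest in 31. Over the 45 genes the median log2 difference from the WT NO mean was 0.22, 0.01 and −0.24 in WT NO replicates 1 to 3. The same median was 0.47, 0.43 and 0.53 in KO NO. It was −0.36, −0.00 and −0.16 in WT RA and 0.09, −0.14 and −1.0 in KO RA. KO NO libraries were thus alike and above each WT NO library, while KO RA replicate 3 was below every other library. KO RA replicate 3 was the lowest of its group in 33 genes and under 0.5 times both other replicates in 21, yet above 2 times both in Nupr1, Psph and Cth.

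**Figure D2:**
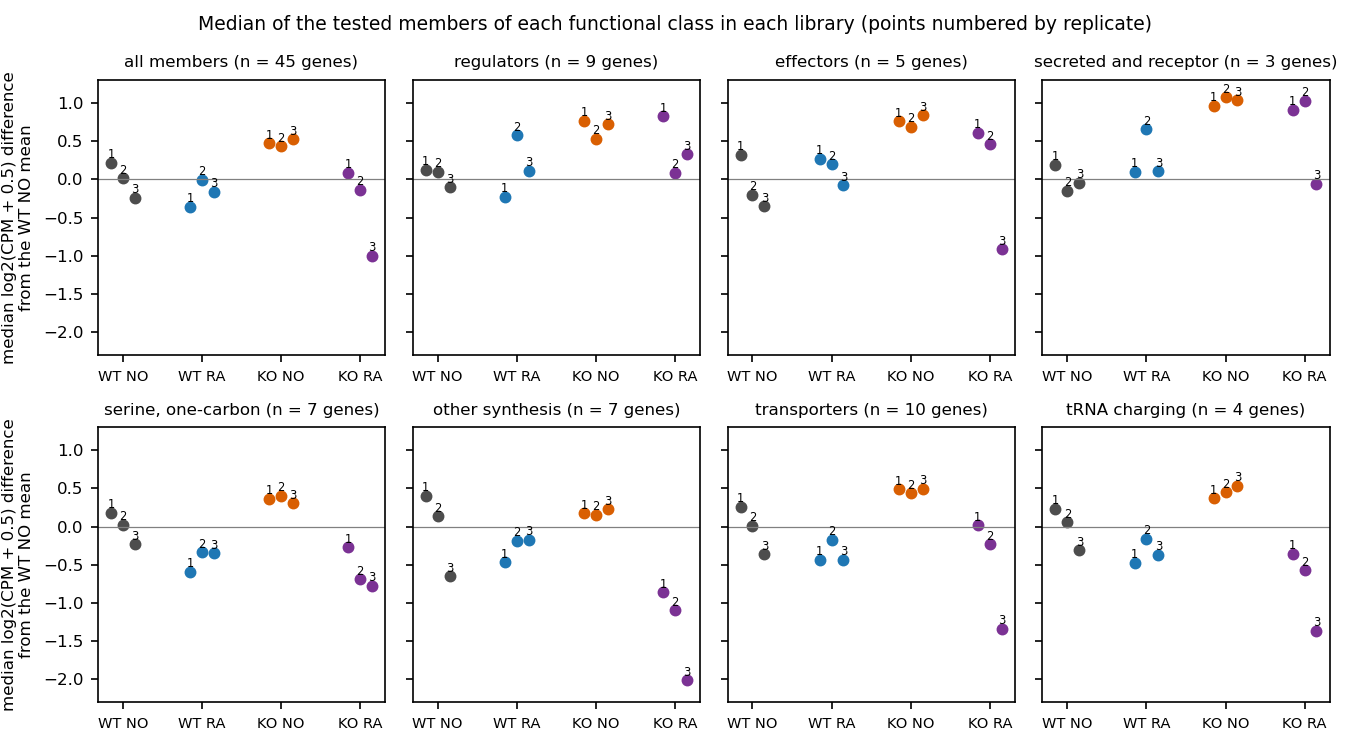
Median over the genes of each functional class of the log2(CPM + 0.5) difference from the WT NO mean, with 1 point per library and 1 panel per class. The 3 KO NO points lie above the 3 WT NO points in every panel except other synthesis, and KO RA replicate 3 is the lowest point in every panel except regulators and secreted and receptor.

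In untreated cells, 41 of 45 genes had a positive log2 fold change in KO over WT (KO NO against WT NO), with a median of 0.44 against a median of −0.02 over all 16502 genes tested. With all libraries, edgeR's quasi-likelihood test called 0 of the 45 genes at an adjusted p under 0.05, against a background of 0.788% of all genes called higher and 0.351% called lower. At an unadjusted p under 0.05 there were 9 of the 45, all higher, against 959 higher and 1052 lower of all 16502 genes. On the same libraries DESeq2 called 5 genes and limma-voom with sample weights 17, all higher. The shares of all genes above are from edgeR, and none is given here for these 2 tests. Without KO RA replicate 3, which is in neither group but widens the shared spread, edgeR called 7 higher and 0 lower, against 4.43% and 4.35% of all genes. In 25 genes every KO NO library was above every WT NO library, and in 0 genes every one was below, against 15.5% and 15.2% of all genes. EdgeR on the libraries of both groups alone called 4 (Atf5, Cebpb, Slc1a5 and Vldlr), all higher, with no share over all genes given here. Without WT NO replicate 3 the median was 0.36 and 36 of 45 genes were positive.

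By function, the medians were 0.72 for the 9 transcription factors and regulators, 0.77 for the 5 stress effectors and 1.31 for the 3 tested genes of secreted proteins and a receptor. They were 0.39 for the 7 genes of serine and one-carbon synthesis, 0.07 for the 7 other synthesis genes, 0.49 for the 10 transporters and 0.42 for the 4 tRNA synthetases. All 9 regulators and all 5 effectors were positive, and the KO and WT libraries were apart in 5 and 4 of them. They were apart in 8 of 10 transporters but in 0 of 7 other synthesis genes. Without WT NO replicate 3, the lowest of its group in most genes, the median of the other synthesis genes was −0.15, with 2 of 7 positive, and that of the serine group 0.29, with 4 of 7 positive. Of the 9 genes with an unadjusted p under 0.05, 3 were regulators, 1 an effector, 2 secreted or receptor genes, 2 transporters and 1 a synthetase.

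Among the regulators, Atf4 (ENSMUSG00000042406, chr15:80139372-80141745 in GRCm39) was at 255, 232 and 170.4 CPM in WT NO replicates 1 to 3 and 223, 266 and 245 CPM in KO NO replicates 1 to 3. The groups overlapped, with a log2 fold change of 0.16 ± 0.25 (edgeR adjusted p = 0.915, and 0.513 without KO RA replicate 3). Ddit3 (ENSMUSG00000025408, chr10:127124268-127132163), which encodes CHOP, the partner of ATF4 that is linked to cell death under ER stress, was at 4.90, 7.65 and 8.94 CPM in WT NO replicates 1 to 3 and 17.8, 10.6 and 12.5 CPM in KO NO replicates 1 to 3. Every KO NO library was above every WT NO library (0.93 ± 0.48, adjusted p = 0.488, and 0.190 without KO RA replicate 3). Trib3 (ENSMUSG00000032715, chr2:152179337-152191958), a pseudokinase that inhibits ATF4 in feedback, was at 9.47, 7.87 and 16.5 CPM in WT NO replicates 1 to 3 and 27.1, 20.3 and 28.6 CPM in KO NO replicates 1 to 3. Here too the groups were apart (1.16 ± 0.40, adjusted p = 0.236, and 0.0702 without KO RA replicate 3). Atf5 (ENSMUSG00000038539, chr7:44461680-44466082), a related bZIP factor that is also under translational control, was at 52.8, 45.8 and 44.0 CPM in WT NO replicates 1 to 3 and 80.8, 68.6 and 86.0 CPM in KO NO replicates 1 to 3. Again no library overlapped (0.72 ± 0.29, adjusted p = 0.341, and 0.0546 without KO RA replicate 3). No regulator passed the test with all libraries or without KO RA replicate 3, the other 5 (Atf3, Cebpb, Cebpg, Jdp2 and Nupr1) included.

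Sesn2 (ENSMUSG00000028893, chr4:132219335-132237815), a leucine sensor that restrains mTORC1, was at 52.9, 43.2 and 33.1 CPM in WT NO replicates 1 to 3 and 78.1, 68.5 and 77.4 CPM in KO NO replicates 1 to 3. Its KO libraries were all higher, with a log2 fold change of 0.79 ± 0.41 (edgeR adjusted p = 0.481), and it rose by the test without KO RA replicate 3 (0.80 ± 0.18, adjusted p = 0.0235). Chac1 (ENSMUSG00000027313, chr2:119180757-119184866), which degrades glutathione, was at 31.7, 21.1 and 29.8 CPM in WT NO replicates 1 to 3 and 39.0, 44.2 and 40.3 CPM in KO NO replicates 1 to 3. The groups were apart, and neither fit called the gene (0.58 ± 0.24, adjusted p = 0.335, and 0.0920 without KO RA replicate 3). The fold changes of all 5 effectors lay between 0.58 and 1.22 on the log2 scale, so the mTORC1 inhibitors Sesn2 and Ddit4 and the eIF2 phosphatase subunits Ppp1r15a and Ppp1r15b stood on the same side.

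The tested genes for secreted proteins and a receptor were all apart between the groups. Vldlr (ENSMUSG00000024924, chr19:27193862-27231631), a lipoprotein and reelin receptor, was at 7.89, 6.14 and 6.62 CPM in WT NO replicates 1 to 3 and 13.8, 22.3 and 15 CPM in KO NO replicates 1 to 3. The lowest KO library was above the highest WT library (1.31 ± 0.32, edgeR adjusted p = 0.0909), and the gene rose by the test without KO RA replicate 3 (1.32 ± 0.24, adjusted p = 0.00910). Stc2 (ENSMUSG00000020303, chr11:31307307-31320124), a secreted glycoprotein induced by ER stress, was at 20.4, 18.8 and 12.4 CPM in WT NO replicates 1 to 3 and 26.0, 35.9 and 35.0 CPM in KO NO replicates 1 to 3. It was likewise apart (0.91 ± 0.30, adjusted p = 0.220) and rose without KO RA replicate 3 (0.92 ± 0.19, adjusted p = 0.0177). Gdf15 had 0 to 3 counts in WT NO, which is at the floor of 3 counts, and 8 to 23 counts in KO NO, at least 3.77-fold higher. The median of its class was 1.31 also with this bound in place of the fitted value.

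In serine synthesis, Phgdh (ENSMUSG00000053398, chr3:98220484-98255047), the first enzyme of the pathway, was at 326, 303 and 255 CPM in WT NO replicates 1 to 3 and 407, 391 and 363 CPM in KO NO replicates 1 to 3. KO libraries were all higher by a small margin (0.39 ± 0.20, edgeR adjusted p = 0.485, and 0.0521 without KO RA replicate 3). Psat1 (ENSMUSG00000024640, chr19:15882039-15924701), the next enzyme, was at 523, 447 and 219 CPM in WT NO replicates 1 to 3 and 439, 444 and 430.4 CPM in KO NO replicates 1 to 3. The groups overlapped, with WT NO replicate 3 low and the other WT libraries at or above the KO level (0.14 ± 0.29, adjusted p = 0.946, and 0.750 without KO RA replicate 3). Asns, the asparagine synthetase and a widely used reporter of ATF4 that is described here after its values were seen, was at 206, 187 and 99.8 CPM in WT NO replicates 1 to 3 and 177, 179 and 189 CPM in KO NO replicates 1 to 3 and showed the same pattern (0.14 ± 0.29, adjusted p = 0.945, and 0.725 without KO RA replicate 3). No gene of serine, one-carbon or other amino acid synthesis passed the test in either fit.

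Among the transporters, Slc1a5 (ENSMUSG00000001918, chr7:16515265-16532731), the exchanger that brings glutamine into the cell, was at 35.1, 33.8 and 19.2 CPM in WT NO replicates 1 to 3 and 54.2, 72.9 and 70.5 CPM in KO NO replicates 1 to 3. The groups were well apart (1.16 ± 0.34, edgeR adjusted p = 0.147), and the gene rose without KO RA replicate 3 (1.18 ± 0.21, adjusted p = 0.00919). Its relative Slc1a4 (ENSMUSG00000020142, chr11:20252180-20282774), which carries alanine, serine and cysteine, was at 42.9, 37.1 and 31.4 CPM in WT NO replicates 1 to 3 and 51.3, 50.2 and 57.2 CPM in KO NO replicates 1 to 3. It was apart too (0.51 ± 0.37, adjusted p = 0.691), and rose without KO RA replicate 3 (adjusted p = 0.0383). Slc7a3 (ENSMUSG00000031297, chrX:100122745-100129631), a carrier of arginine and lysine, was at 52.8, 47.2 and 28.6 CPM in WT NO replicates 1 to 3 and 69.2, 73.7 and 65.6 CPM in KO NO replicates 1 to 3. Every KO library was higher (0.70 ± 0.23, adjusted p = 0.211), and it also rose without KO RA replicate 3 (adjusted p = 0.0410). Slc7a5 (ENSMUSG00000040010, chr8:122607884-122634433), the large neutral amino acid transporter, overlapped at 149.6, 122 and 85.9 CPM in WT NO replicates 1 to 3 and 112, 108 and 129 CPM in KO NO replicates 1 to 3 (−0.04 ± 0.39, adjusted p = 0.997, and 0.961 without KO RA replicate 3). Its heavy chain Slc3a2 (ENSMUSG00000010095, chr19:8684245-8701108) was at 181, 171 and 157 CPM in WT NO replicates 1 to 3 and 228, 229 and 224 CPM in KO NO replicates 1 to 3, apart but not called (0.42 ± 0.31, adjusted p = 0.693, and 0.194 without KO RA replicate 3).

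Of the tRNA synthetases, Lars (ENSMUSG00000024493, chromosome 18), which charges leucine, was at 164, 151 and 195 CPM in WT NO replicates 1 to 3 and 262, 304 and 244 CPM in KO NO replicates 1 to 3. The groups were apart (0.67 ± 0.24, edgeR adjusted p = 0.255), and it rose without KO RA replicate 3 (0.67 ± 0.15, adjusted p = 0.0221). Cars, Sars and Gars, for cysteine, serine and glycine, had log2 fold changes from 0.24 upwards, and none passed the test in either fit.

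**Figure D3:**
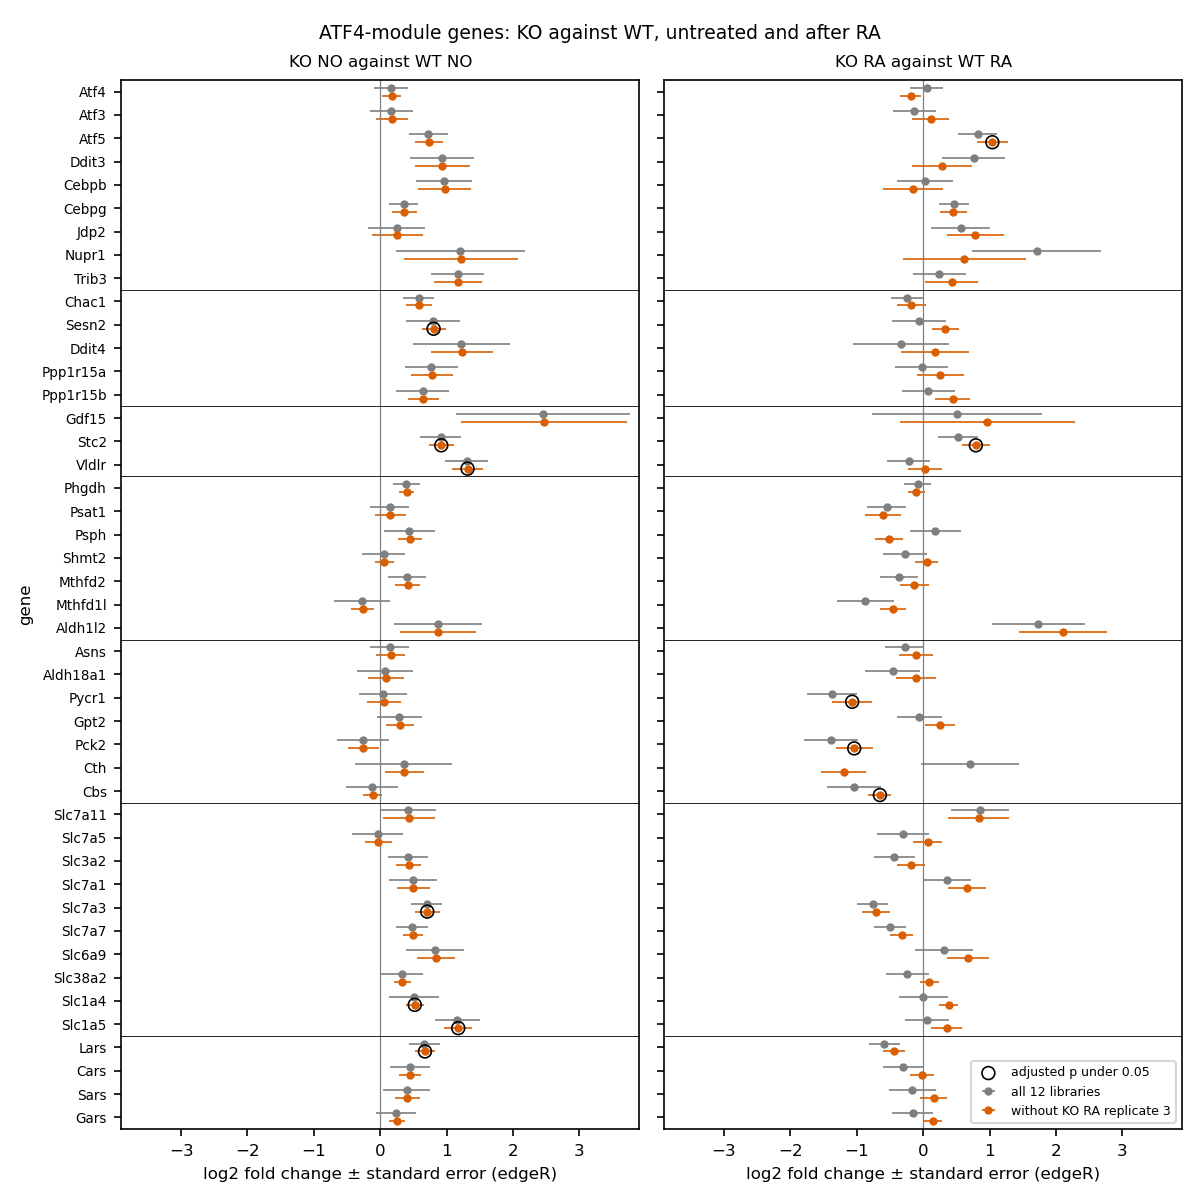
Log2 fold change ± standard error (edgeR) of each gene (vertical axis) for KO NO against WT NO and for KO RA against WT RA, with all 12 libraries in grey and without KO RA replicate 3 in orange. Open circles mark an adjusted p under 0.05: 7 genes in the untreated panel and 5 in the RA panel, all in the orange series.

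After RA, the log2 fold change of KO RA against WT RA was positive in 19 of 45 genes with a median of −0.08, against 0.09 over all genes. Leaving out KO RA replicate 3, it was positive in 26 of 45 with a median of 0.09, against 0.01 over all genes, so the sign of the median depends on that library. With all libraries 0 genes were called by edgeR in either direction, against 0.885% of all genes called higher and 0.358% lower. Without adjustment, 2 higher and 5 lower genes of the 45 had a p under 0.05, against 1799 and 1100 of all 16502 genes. DESeq2 on the same libraries called 1 higher and 4 lower, with no share over all genes given here. In the fit that leaves out KO RA replicate 3, edgeR called Atf5 and Stc2 higher and Pck2, Cbs and Pycr1 lower, against 4.42% and 5.44% of all genes. With all libraries the groups were apart as higher in 4 genes and as lower in 7, against 9.97% and 10.9% of all genes. Without KO RA replicate 3, which leaves 2 KO libraries, they were apart as higher in 10 and as lower in 9, against 25.7% and 22.2%. Without WT NO replicate 3, which is in neither group, edgeR called 2 genes lower.

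By class, the median was 0.47 for the regulators, and 0.43 without KO RA replicate 3. It was −0.46 for the other synthesis genes, and −0.65 without that library, with 1 of 7 and again 1 of 7 positive. The medians of effectors (−0.06), transporters (−0.12) and synthetases (−0.23) turned positive without KO RA replicate 3, at 0.26, 0.22 and 0.06. The median of the secreted and receptor genes was 0.51, and 0.79 without it, and that of serine and one-carbon synthesis was −0.27, and −0.13 without it. The medians of the regulators, the secreted and receptor genes and both synthesis classes thus kept their sign. Of the 3 secreted and receptor genes, Stc2 was at 0.53 and Vldlr at −0.22 with all libraries, so 0.51 is the fitted value of Gdf15. Gdf15 was at 0.0961, 0.388 and 0 CPM in WT RA and 0.406, 0.238 and 0 CPM in KO RA, so that value rests on few counts.

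Atf5 was at 34.1, 40.3 and 43.1 CPM in WT RA replicates 1 to 3 and 107, 55.3 and 45.0 CPM in KO RA replicates 1 to 3. All KO libraries were above all WT libraries, with KO RA replicate 1 far above the rest (0.82 ± 0.30, edgeR adjusted p = 0.205), and it rose without KO RA replicate 3 (1.04 ± 0.23, adjusted p = 0.0208). Stc2 was at 18.1, 21.5 and 18.1 CPM in WT RA replicates 1 to 3 and 32.0, 34.9 and 16.2 CPM in KO RA replicates 1 to 3. KO RA replicate 3 lay below the WT libraries while the other KO libraries were above them (0.53 ± 0.30, adjusted p = 0.373), and the gene rose without that library (0.79 ± 0.21, adjusted p = 0.0400). Atf4 was at 239.5, 271 and 233 CPM in WT RA replicates 1 to 3 and 229, 207 and 335 CPM in KO RA replicates 1 to 3, overlapping (0.05 ± 0.25, adjusted p = 0.937, and −0.19 ± 0.16, adjusted p = 0.498, without KO RA replicate 3). Ddit3 was at 10.3, 32.8 and 13.7 CPM in WT RA replicates 1 to 3 and 28.4, 17.7 and 50.4 CPM in KO RA replicates 1 to 3. WT RA replicate 2 lay above 2 of the KO libraries, and the groups overlapped (0.76 ± 0.48, adjusted p = 0.421, and 0.28 ± 0.45, adjusted p = 0.747, without KO RA replicate 3).

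Pycr1 (ENSMUSG00000025140, chr11:120526484-120539269), which makes proline, was at 30.5, 29.0 and 37.6 CPM in WT RA replicates 1 to 3 and 15.7, 15.2 and 6.34 CPM in KO RA replicates 1 to 3. Every KO library was lower (−1.37 ± 0.38, edgeR adjusted p = 0.106), and it fell by the test without KO RA replicate 3 (−1.07 ± 0.30, adjusted p = 0.0478). Pck2 (ENSMUSG00000040618, chr14:55777542-55788758), the mitochondrial enzyme that makes phosphoenolpyruvate, was at 18.7, 33 and 19.1 CPM in WT RA replicates 1 to 3 and 13.1, 10.0 and 3.67 CPM in KO RA replicates 1 to 3. It was lower in all KO libraries (−1.39 ± 0.40, adjusted p = 0.120) and fell without KO RA replicate 3 (−1.04 ± 0.28, adjusted p = 0.0397). In the transsulfuration pathway from homocysteine to cysteine, Cbs (ENSMUSG00000024039, chr17:31827868-31856646) was at 13.3, 11.8 and 15 CPM in WT RA replicates 1 to 3 and 9.21, 7.87 and 2.08 CPM in KO RA replicates 1 to 3. It was lower in all KO libraries (−1.04 ± 0.40, adjusted p = 0.226), and fell without KO RA replicate 3 (−0.65 ± 0.17, adjusted p = 0.0409). Cbs lies on chromosome 17, whose median log2 fold change over its tested genes was −0.46 in this comparison and −0.47 in untreated cells. Its part in the value of Cbs was not tested.

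Cth (ENSMUSG00000028179, chr3:157599868-157630739), the next enzyme of that pathway, depended on a single library. It was at 166, 140.0 and 191 CPM in WT RA replicates 1 to 3 and 80.4, 64.9 and 666 CPM in KO RA replicates 1 to 3. KO RA replicate 3 was above every other library of the series and the other KO RA libraries were below every WT RA library. The log2 fold change was 0.71 ± 0.73 with all libraries (edgeR adjusted p = 0.653) and −1.19 ± 0.34 without KO RA replicate 3 (adjusted p = 0.0502).

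In WT cells after RA, the log2 fold change of WT RA against WT NO was positive in 16 of 45 genes with a median of −0.18, against −0.01 over all genes. With all libraries edgeR called 0 genes in either direction, against 0.321% of all genes called higher and 0.0848% lower. An unadjusted p under 0.05 was reached by 3 higher and 4 lower genes of the 45, against 1115 and 956 of all 16502 genes. DESeq2 on the same libraries called 1 higher and 1 lower, with no share over all genes given here. With KO RA replicate 3, which is in neither group, left out, edgeR called Vldlr and Ddit4 higher and Gars, Slc7a7, Shmt2, Psph and Slc7a5 lower, against 5.65% and 5.13% of all genes. The groups were apart as higher in 4 genes and as lower in 8, against 15.1% and 14% of all genes. The medians were 0.18 for regulators, 1.22 for secreted and receptor genes, −0.41 for serine and one-carbon synthesis, −0.26 for transporters and −0.35 for synthetases. Of the 3 secreted and receptor genes, Stc2 was at 0.16 and Vldlr at 1.30, so the median of 1.22 is the fitted value of Gdf15. Gdf15 was at the floor in WT NO and at 0.0961, 0.388 and 0 CPM in WT RA replicates 1 to 3, so that median rests on few counts.

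Vldlr, given above for WT NO, was at 22.3, 12.9 and 15.6 CPM in WT RA replicates 1 to 3. Each was above each WT NO library (1.30 ± 0.32, edgeR adjusted p = 0.122), and it rose without KO RA replicate 3 (1.30 ± 0.24, adjusted p = 0.00975). Ddit4 (ENSMUSG00000020108, chr10:59785491-59788492), the REDD1 inhibitor of mTORC1, was at 19.3, 11.2 and 29.9 CPM in WT NO replicates 1 to 3 and 100.1, 38.4 and 56.7 CPM in WT RA replicates 1 to 3. The groups were apart with a wide spread in both (1.69 ± 0.74, adjusted p = 0.377), and it rose without KO RA replicate 3 (adjusted p = 0.0477). Ddit3 in WT RA, at 10.3, 32.8 and 13.7 CPM, was above WT NO in every library and highest in replicate 2 (1.40 ± 0.49, adjusted p = 0.253, and 0.0566 without KO RA replicate 3). Atf4 overlapped (0.18 ± 0.25, adjusted p = 0.854, and 0.452 without KO RA replicate 3).

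In the folate and serine arm, Shmt2 (ENSMUSG00000025403, chr10:127352266-127358323), which splits serine to glycine in mitochondria, was at 176, 152 and 128 CPM in WT NO replicates 1 to 3 and 83.2, 102 and 93.6 CPM in WT RA replicates 1 to 3. RA libraries were all lower (−0.71 ± 0.33, edgeR adjusted p = 0.408, and 0.0177 without KO RA replicate 3, where it fell by the test). Psph (ENSMUSG00000029446, chr5:129841925-129864513), the last enzyme of serine synthesis, was at 47.4, 55.4 and 61.2 CPM in WT NO replicates 1 to 3 and 35.9, 36.9 and 26.4 CPM in WT RA replicates 1 to 3. It was lower in all RA libraries (−0.73 ± 0.38, adjusted p = 0.488) and fell without KO RA replicate 3 (adjusted p = 0.0366).

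Slc7a7 (ENSMUSG00000000958, chr14:54606895-54655603), a light chain for the exchange of dibasic for neutral amino acids, was at 79.0, 74.6 and 95.8 CPM in WT NO replicates 1 to 3 and 61.8, 41.5 and 47.2 CPM in WT RA replicates 1 to 3. It was lower in all RA libraries (−0.73 ± 0.24, edgeR adjusted p = 0.236) and fell without KO RA replicate 3 (adjusted p = 0.0167). Slc7a5 was at 67.6, 79.0 and 70.7 CPM in WT RA, below every WT NO library (−0.72 ± 0.39, adjusted p = 0.504), and fell without KO RA replicate 3 (adjusted p = 0.0460). Gars (ENSMUSG00000029777, chr6:55014927-55061231), the glycyl-tRNA synthetase, was at 150.4, 127 and 114 CPM in WT NO replicates 1 to 3 and 69.5, 84.2 and 79.6 CPM in WT RA replicates 1 to 3. Each RA library was lower (−0.75 ± 0.30, adjusted p = 0.336), and it fell without KO RA replicate 3 (−0.74 ± 0.12, adjusted p = 0.00656).

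In KO cells after RA, 7 genes of the programme fell and none rose by edgeR on all libraries, and none of the 7 passed by edgeR on the libraries of KO RA and KO NO alone. The log2 fold change of KO RA against KO NO was positive in 6 of 45 genes, and the median was −0.75 against 0.11 over all genes. With all libraries edgeR called 7 genes lower and 0 higher: Slc7a7, Slc7a3 and Slc1a5 of the transporters, Lars, Chac1, Pycr1 and Mthfd2. The background was 1.59% of all genes called lower and 3.89% called higher. At an unadjusted p under 0.05 there were 20 lower and 1 higher of the 45, against 1555 and 2608 of all 16502 genes. DESeq2 on the same libraries called 16 lower and 0 higher. EdgeR on the libraries of both groups alone called 0, with 14 lower and 1 higher at an unadjusted p under 0.05, and DESeq2 on those libraries called 14 lower. No share over all genes is given here for these 3 fits. Without KO RA replicate 3 edgeR called 17 lower and 0 higher, against 7.54% and 8.48% of all genes. The 10 added were Cars, Cbs, Cth, Gars, Pck2, Phgdh, Psat1, Psph, Shmt2 and Slc3a2. In 26 genes every KO RA library was below every KO NO library and in 0 genes every one was above, against 17% and 13.2% of all genes. These counts were 27 and 0 without KO RA replicate 3, against 28.3% and 27.4%.

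The count turned on single libraries and on the filter. With no filter beyond 1 count it was 3. Without WT NO replicates 1, 2 and 3 in turn it was 6, 3 and 11. Without WT RA replicates 1 to 3 it was 2, 3 and 2, and without KO NO replicates 1 to 3 it was 2 each time. Without KO RA replicates 1, 2 and 3 it was 12, 4 and 17. Lars and Slc7a7 were called in each of these 12 fits. The median over the genes was −0.62 without KO RA replicate 3, with 10 genes positive, against −0.02 over all genes.

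Class medians were −1.12 for the synthetases, −0.99 for serine and one-carbon synthesis, −0.98 for the other synthesis genes, −0.96 for the transporters and −0.76 for the effectors. They were −0.04 for the regulators and −0.23 for the secreted and receptor genes. KO RA libraries were below all KO NO libraries in 9 of 10 transporters, 5 of 7 genes in each synthesis class and 3 of 4 synthetases, but in 1 of 9 regulators. Those that passed with all libraries were 3 transporters, 1 gene of each synthesis class, 1 synthetase and 1 effector. Leaving out KO RA replicate 3 gave medians of −0.84 for the synthetases, −0.72 for serine and one-carbon synthesis, −0.96 for the other synthesis genes, −0.67 for the transporters and −0.47 for the effectors. That of the regulators turned to 0.04 and that of the secreted and receptor genes to 0.02. Atf4 was at 223, 266 and 245 CPM in KO NO and 229, 207 and 335 CPM in KO RA, with groups that overlapped (0.07 ± 0.25, edgeR adjusted p = 0.879, and −0.18 ± 0.16, adjusted p = 0.509, without KO RA replicate 3). Ddit3 in KO RA was at 28.4, 17.7 and 50.4 CPM. Its KO NO libraries reached the lowest of these, and the gene was not called (1.23 ± 0.48, adjusted p = 0.150, and 0.74 ± 0.45, adjusted p = 0.292, without KO RA replicate 3).

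**Figure D4:**
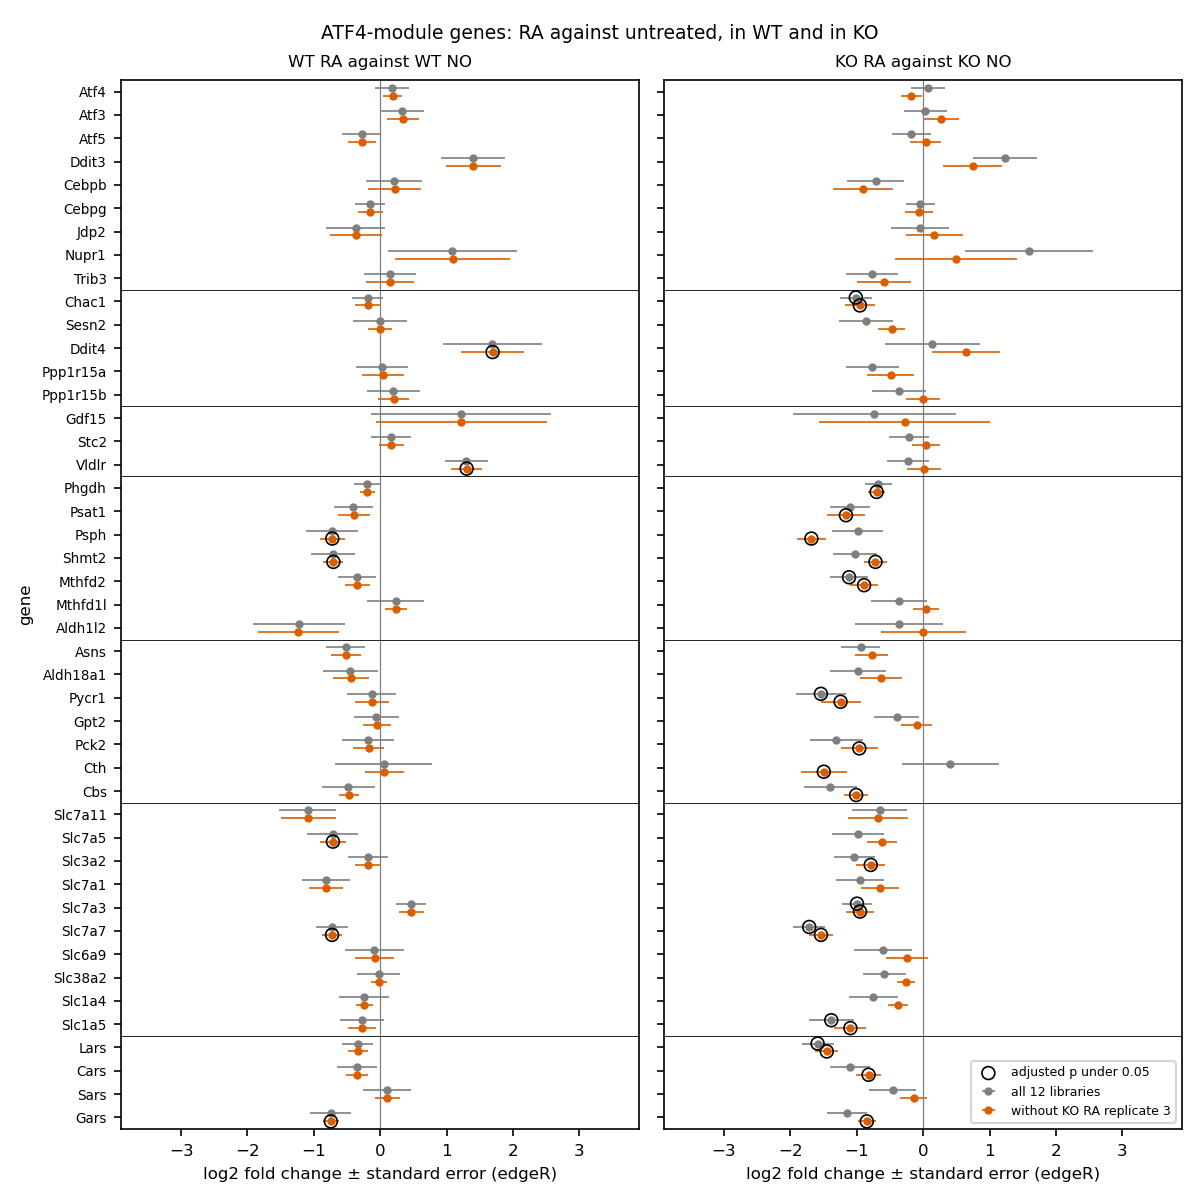
Log2 fold change ± standard error (edgeR) of each gene (vertical axis) for WT RA against WT NO and KO RA against KO NO, with all 12 libraries in grey and without KO RA replicate 3 in orange. Open circles mark an adjusted p under 0.05. In the KO panel they mark 7 genes in grey and 17 in orange, all left of 0.

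Among the transporters, Slc7a7 was at 117, 113 and 119.5 CPM in KO NO replicates 1 to 3 and 38.9, 41.7 and 25.4 CPM in KO RA replicates 1 to 3. The KO RA libraries were all far below, KO RA replicate 3 lowest, and the gene fell by 1.72 on the log2 scale (standard error 0.25, edgeR adjusted p = 0.00396). Without KO RA replicate 3 the change was −1.54 ± 0.18 (adjusted p = 0.000671). Slc1a5 was at 34.1, 28.0 and 13.4 CPM in KO RA, against the KO NO values given above. It fell in all libraries (−1.38 ± 0.34, adjusted p = 0.0397, and −1.10 ± 0.24, adjusted p = 0.0129, without KO RA replicate 3). Slc7a3 was at 37.6, 34.9 and 32.0 CPM in KO RA, close together and below every KO NO library. It fell too (−1.0 ± 0.23, adjusted p = 0.0327, and 0.0137 without KO RA replicate 3). Slc3a2 was at 144, 121 and 66.9 CPM in KO RA, below KO NO, and fell only without KO RA replicate 3 (−0.79 ± 0.22, adjusted p = 0.0334, against 0.0774 with it). Slc1a4 was at 44.8, 37.3 and 11.9 CPM, below KO NO but called in neither fit (adjusted p = 0.230 and 0.119). Slc7a5 was at 90.9, 61.5 and 24.0 CPM, also below KO NO and called in neither fit (adjusted p = 0.156 and 0.0881).

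Lars was at 105, 93.8 and 70.1 CPM in KO RA, less than the lowest KO NO library by more than the range of either group. It fell by 1.59 on the log2 scale (standard error 0.24, edgeR adjusted p = 0.00526), and by 1.45 without KO RA replicate 3 (adjusted p = 0.000824). Cars (ENSMUSG00000010755, chr7:143107440-143153828) was at 81.1, 76.7 and 85.1 CPM in KO NO replicates 1 to 3 and 50.3, 41.9 and 20.9 CPM in KO RA replicates 1 to 3. It was lower in every library and fell without KO RA replicate 3 (−0.82 ± 0.19, adjusted p = 0.0160, against 0.0607 with it). Gars was at 152, 150.4 and 160.0 CPM in KO NO replicates 1 to 3 and 91.6, 81.0 and 36.0 CPM in KO RA replicates 1 to 3, also apart, and fell without that library (−0.85 ± 0.14, adjusted p = 0.00354, against 0.0531 with it). Sars was not called in either fit.

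In serine and one-carbon synthesis, Mthfd2 (ENSMUSG00000005667, chr6:83282673-83302890), the mitochondrial folate dehydrogenase, was at 72.7, 70.7 and 70.3 CPM in KO NO replicates 1 to 3 and 44.5, 33 and 20.9 CPM in KO RA replicates 1 to 3. The KO NO libraries were tight and all KO RA libraries were below them, and the gene fell (−1.12 ± 0.29, edgeR adjusted p = 0.0478, and 0.0197 without KO RA replicate 3). Phgdh was at 256, 224 and 247 CPM and Psat1 at 209, 185 and 217 CPM in KO RA, both below every KO NO library and with KO RA replicate 3 at the level of its partners. Both fell without KO RA replicate 3: Phgdh by 0.70 (adjusted p = 0.00583) and Psat1 by 1.16 (adjusted p = 0.0186) on the log2 scale. With it their adjusted p-values were 0.0791 and 0.0541. Shmt2 was at 162, 152 and 159 CPM in KO NO replicates 1 to 3 and 113, 80.4 and 37.7 CPM in KO RA replicates 1 to 3 and fell without that library (adjusted p = 0.0179, against 0.0951). Psph was at 70.3, 77.9 and 74.6 CPM in KO NO replicates 1 to 3 and 28.8, 17.8 and 66.0 CPM in KO RA replicates 1 to 3. KO RA replicate 3 lay near the KO NO level, and without it the gene fell (−1.68 ± 0.22, adjusted p = 0.00121, against −0.99 ± 0.39 and 0.150 with it).

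Among the other synthesis genes, Pycr1 was at 33.5, 40.5 and 35.1 CPM in KO NO replicates 1 to 3 and 15.7, 15.2 and 6.34 CPM in KO RA replicates 1 to 3. All KO RA libraries were below, and it fell (−1.54 ± 0.38, edgeR adjusted p = 0.0397, and 0.0191 without KO RA replicate 3). Pck2 was at 23.4, 24.3 and 19.2 CPM in KO NO replicates 1 to 3 and 13.1, 10.0 and 3.67 CPM in KO RA replicates 1 to 3 and Cbs at 17.2, 18.7 and 15.4 CPM in KO NO replicates 1 to 3 and 9.21, 7.87 and 2.08 CPM in KO RA replicates 1 to 3. In both the groups were apart, with KO RA replicate 3 lowest. Both fell without it, Pck2 with an adjusted p of 0.0374 and Cbs of 0.00445, against 0.0832 and 0.0700 with it. Cth turned from 0.41 ± 0.73 (adjusted p = 0.753) to −1.50 ± 0.34 (adjusted p = 0.0154) without KO RA replicate 3. Among the effectors, Chac1 was at 25.2, 17.7 and 18.2 CPM in KO RA, below every KO NO library, and fell (−1.01 ± 0.24, adjusted p = 0.0338, and 0.0183 without KO RA replicate 3). Sesn2 was at 64.7, 43.8 and 14.8 CPM, below KO NO with a spread that left it uncalled (adjusted p = 0.213 and 0.146).

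The RA response was compared between genotypes as the difference of the log2 changes from NO to RA (KO minus WT). It was positive in 7 of 45 genes with a median of −0.56, against 0.12 over all genes. With KO RA replicate 3 left out it was again positive in 7 of 45, with a median of −0.47 against −0.00 over all genes. With all libraries edgeR called 0 members and 0 genes of the whole table, which is 0% in each direction. At an unadjusted p under 0.05 there were 7 lower and 0 higher, against 510 and 913 of all 16502 genes. DESeq2 on the same libraries called 3 lower, with no share over all genes given here. Without KO RA replicate 3 edgeR called Slc7a3 and Lars lower and none higher, against 0.537% and 0.802% of all genes. The comparisons above share their groups with this one, so their directions are not separate evidence.

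Slc7a3 was higher in KO than in WT without RA and lower after RA, in every library: 52.8, 47.2 and 28.6 CPM in WT NO and 69.2, 73.7 and 65.6 CPM in KO NO, then 60.7, 54.1 and 62.3 CPM in WT RA and 37.6, 34.9 and 32.0 CPM in KO RA. Every WT RA library was above every WT NO library and every KO RA library below every KO NO library. The interaction was −1.46 ± 0.33 (edgeR adjusted p = 0.264) and −1.42 ± 0.28 without KO RA replicate 3 (adjusted p = 0.0425). Lars crossed in the same sense, at 122, 160.3 and 122 CPM in WT RA replicates 1 to 3 against 105, 93.8 and 70.1 CPM in KO RA. Its interaction was −1.25 ± 0.33 (adjusted p = 0.350) and −1.12 ± 0.23 without KO RA replicate 3 (adjusted p = 0.0444). Vldlr was already as high in KO NO as in WT RA, at 13.8, 22.3 and 15 CPM in KO NO and 17.3, 17.4 and 8.72 CPM in KO RA, but its interaction did not pass (−1.53 ± 0.45, adjusted p = 0.395, and 0.0911 without KO RA replicate 3).

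**Figure D5:**
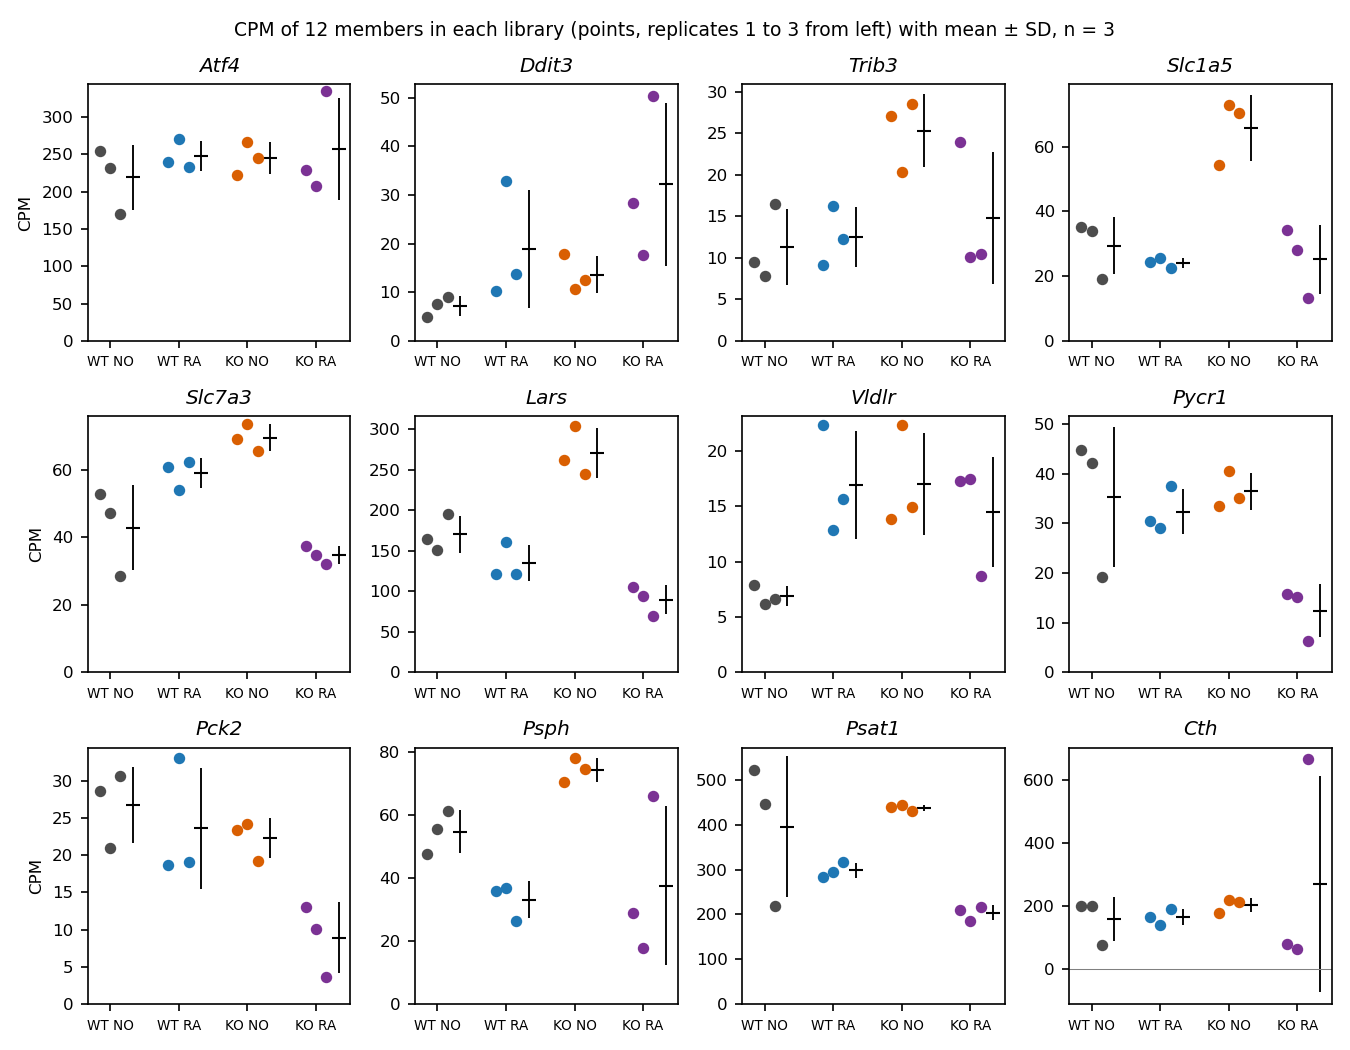
CPM of 12 of the genes in each library (1 point per library, 3 per group) with the group mean ± SD (n = 3), on linear axes. Slc7a3 and Lars are above WT in KO NO and below WT in KO RA, while the Atf4 points of the 4 groups overlap.

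Other genes of the same pathways were counted from lists of further members of each pathway. Of 14 genes of the eIF2 machinery (the kinases, eIF2 and eIF2B subunits, Gcn1 and Impact), edgeR called 0 with all libraries in KO NO against WT NO and in KO RA against KO NO, where an unadjusted p under 0.05 was reached by 1 (higher) and by 5 (4 of them lower). Once KO RA replicate 3 was left out, Eif2ak3, which encodes PERK, was the only one to rise in KO NO against WT NO (0.90 ± 0.17, edgeR adjusted p = 0.0123), and 7 of 14 fell in KO RA against KO NO, where 7.54% of all genes were called lower and 8.48% higher. Of 16 further cytosolic tRNA synthetases, Mars1 fell in KO RA against KO NO with all libraries (−0.98 ± 0.24, adjusted p = 0.0388) and 8 of 16 without KO RA replicate 3, against 1.59% and 7.54% of all genes called lower. Their median in that comparison was −0.80, and −0.59 without that library. In KO NO against WT NO their median was 0.10, with Dars and Yars higher and Vars lower without KO RA replicate 3, against 4.43% and 4.35% of all genes.

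Of 12 further folate and glycine genes, 5 fell and 1 rose in KO RA against KO NO without KO RA replicate 3, against 7.54% and 8.48% of all genes, and with all libraries 0 passed, while an unadjusted p under 0.05 was reached by 4 lower and 1 higher. Of 13 further amino acid transporters, 12 were tested, and Slc7a6 (−1.19 ± 0.26, edgeR adjusted p = 0.0261) and Slc43a2 (−1.91 ± 0.30, adjusted p = 0.00652) fell in that comparison with all libraries, against 1.59% of all genes. The median of those transporters there was −0.01, against −0.96 for the 10 transporters of the programme. The medians were 0.22 and −0.67 without KO RA replicate 3, so the sign of the first turned on that library. Of 6 further genes listed as having an ATF4 or CHOP site, Eif4ebp1 and Xpot fell in KO RA against KO NO without KO RA replicate 3, against 7.54% of all genes. In KO NO against WT NO 0 of the 6 passed with all libraries or at an unadjusted p under 0.05. Their median there was 0.29 with 5 of 6 positive, and KO was above WT in every library in 3, against 15.5% of all genes. Without KO RA replicate 3 the test called 0, and 2 were higher at an unadjusted p under 0.05.

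Cell type markers moved with the RA comparisons, and their part in the results was not tested. Summed levels of 6 mesenchymal markers ran from 20.2 to 53.2 CPM in WT NO, 73.3 to 80.3 in WT RA, 32.2 to 40.3 in KO NO and 76.1 to 178 in KO RA. Those of 6 neuron markers ran from 77.6 to 107 CPM, 138 to 158, 69.5 to 87.2 and 141 to 203 in the same order. With all libraries, edgeR called 4 of 6 mesenchymal, 2 of 6 neuron, 2 of 5 progenitor and 2 of 3 tested endothelial markers higher in KO RA than in KO NO, against 3.89% of all genes, and 2 of 6 mesenchymal markers higher in WT RA than in WT NO, against 0.321%. The neuron and progenitor lists did not move 1 way. In KO RA against KO NO, 1 neuron marker (−1.77) and 1 progenitor marker (−1.14) were lower at an unadjusted p under 0.05. For WT RA against WT NO the lowest neuron marker was at −2.73, and 1 neuron marker was called lower without KO RA replicate 3, against 5.13% of all genes. Summed levels of 4 endothelial markers were at most 2.81 CPM in WT NO, 2.23 in WT RA and 2.01 in KO NO and ran from 4.16 to 12.6 CPM in KO RA, with Cdh5 at 0 in WT NO and KO NO. The 5 progenitor markers summed to 254 to 300 CPM in WT NO, 273 to 313 in WT RA, 255 to 289 in KO NO and 169 to 324 in KO RA, so they were detected in every group. Pax6 was lower in KO in both treatments (edgeR adjusted p = 0.0264 and 0.0396, and 0.00815 and 0.0221 without KO RA replicate 3), but the 5 did not move together. Without KO RA replicate 3, edgeR called 2 of them higher and 1 lower in KO RA against WT RA, against 4.42% and 5.44% of all genes. In KO NO against WT NO that fit called 0 higher and 2 lower, against 4.43% and 4.35%. Of 4 pluripotent and germline markers, the summed level ran from 1207 to 2322 CPM in WT NO, 2184 to 2867 in WT RA, 1423 to 1697 in KO NO and 1025 to 1243 in KO RA. Ddx4 was at the floor in WT NO and WT RA. The 3 tested markers ran from −1.29 to 4.99 on the log2 scale in KO RA against WT RA, so the sum does not describe each of them. Of the haematopoietic and astroglial markers, Csf1r and Aqp4 were at the floor of 3 counts in every group.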

How the data were processed

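Bulk mRNA libraries of 12 NE-4C cultures, 3 per group, were analysed. The authors aligned paired-end reads to mouse GRCm39 (Ensembl 109) with the default nf-core/rnaseq pipeline (STAR, Salmon) and deposited 1 table of estimated counts per gene. Those counts are scaled from TPM to the library total: in 3851 genes above 0 in 1 library they fell with exonic length (Spearman correlation −0.685, across genes). They are therefore levels per length, and a count is not a number of fragments. Groups came from the sample labels, and no column was left unused (0).

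Counts were rounded to whole numbers and tested in R 4.3.3 with edgeR 4.0.16: filterByExpr (16502 genes, or 17327 without KO RA replicate 3), TMM factors, 1 coefficient per group over all libraries, robust quasi-likelihood fits (common dispersion 0.215), and Benjamini-Hochberg adjustment over all genes tested. A gene was called at an adjusted p under 0.05. All 5 comparisons in the text share groups. The floor was 3 counts per library, and a fold change against a group at or under it is a bound that covers counting error only. Alternatives used DESeq2 1.42.0, limma 3.58.1 (voom), other filters, scalings and samples, and each library left out. Shares of all genes called are from edgeR with all libraries or without KO RA replicate 3. None are given for the other alternatives, so their counts cannot be set against these shares.

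The 46 genes, their classes, the other lists and the tests were chosen with earlier results of these data known. Library values are given for each gene called in any comparison with or without KO RA replicate 3, for the 2 genes of each class with the smallest unadjusted p, and for Atf4, Ddit3 and Faf2. Asns lies outside this rule. A second entry named Ddit3 was 0 in all libraries and was left out. Positions and promoters came from GENCODE M39 and GRCm39, read with Python 3.11.15, and figures from matplotlib 3.10.9. Same-numbered replicates of different groups did not deviate together (0 of 18 correlations over 0.1, range −0.167 to 0.0677).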

Additional observations from a re-analysis of the deposited data

Results flagged for a closer look

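Slc7a3 and Lars differed between the genotypes in opposite directions without RA and after it. For Slc7a3 every WT RA library was above every WT NO library and every KO RA library was below every KO NO library, and the difference of the RA responses (KO minus WT) was −1.46 on the log2 scale. The edgeR test of that difference gave an adjusted p of 0.264 with all libraries and 0.0425 without KO RA replicate 3. For Lars every KO NO library was above every WT NO library and every KO RA library below every WT RA library, and the difference was −1.25, with an adjusted p of 0.350 and 0.0444. Neither passed with all libraries. No test for single outlying values was run in these groups of 3 libraries.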

How the results depend on the processing

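Over all settings, named genes' log2 fold changes were compared 3024 times with the reported ones: 2587 kept direction and side of the threshold, 54 no longer passed, 247 newly passed and 136 changed sign. In 126 of the sign changes, spread over 36 values of 19 genes, neither value passed; outside Cth the reported values were then at most 0.38 in size and the alternatives at most 0.56. In the other 10 the alternative passed. All 10 were Cth, whose reported values are positive: −1.19 (voom), −1.20 (DESeq2 without KO RA replicate 3) and −1.19 (without WT NO 3 and KO RA 3) in KO RA against WT RA, −1.47, −1.49 and −1.50 in KO RA against KO NO, with −1.50 also by edgeR without KO RA replicate 3 (leaving out 1 library at a time gave −1.50 to 0.96), and −1.31, −1.55 and −1.23 for the interaction. Counts of genes called, with the same 3 alternatives in the same order, were 17, 12 and 11 higher for KO NO against WT NO (0 reported), 3, 3 and 4 higher and 6, 5 and 6 lower for KO RA against WT RA (0 and 0), 4, 3 and 3 higher and 13, 7 and 11 lower for WT RA against WT NO (0 and 0), 23, 19 and 19 lower for KO RA against KO NO (7), and 6, 7 and 5 lower for the interaction (0). DESeq2 on all 12 libraries called 5 higher; 1 higher and 4 lower; 1 and 1; 16 lower; and 3 lower, in the same order of comparisons. DESeq2 on the groups compared called 19 higher; 2 lower; 3 higher and 6 lower; and 14 lower. EdgeR on the groups compared called 4 genes as higher for KO NO against WT NO, 1 higher and 1 lower in WT RA against WT NO, and 0 in KO RA against KO NO. Without a filter beyond 1 count, 3 genes were lower in KO RA against KO NO. Leaving out 1 library at a time gave 0 to 7 higher for KO NO against WT NO, 0 to 2 higher and 0 to 3 lower for KO RA against WT RA, 0 to 2 higher and 0 to 5 lower for WT RA against WT NO, 2 to 17 lower for KO RA against KO NO and 0 to 2 lower for the interaction. The upper end was without KO RA replicate 3 in each. The WT NO and KO RA groups with WT NO 3 and KO RA 3 left out hold 2 libraries each. That alternative, DESeq2 on the groups compared and DESeq2 without KO RA replicate 3 were chosen after seeing the data.

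Replicate numbers did not pair the libraries. With the replicate block, 3 genes were lower in KO RA against KO NO (7 without it), and no other count of called genes moved by over 1.5 times. DESeq2's size factors in edgeR, and a filter of 10 counts in every library, kept every count within 1.5 times. Of the promoters, 12 held TGATGCAA, against 17 for TGATGNAA. The cause of these differences was not tested. With 3 passages of 1 line per genotype, the tests cannot separate genotype from line, and estimated counts scaled for length understate or overstate the precision of single genes by an amount not known here.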

Other observations

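Some genes of the programme outside the rule for named genes were chosen here after their values were seen. Aldh1l2, a mitochondrial folate dehydrogenase, was at 0.577, 1.16 and 1.19 CPM in WT RA replicates 1 to 3 and 6.14, 2.38 and 1.19 CPM in KO RA replicates 1 to 3, and at 0.845, 1.37 and 4.67 CPM in WT NO and 4.22, 3.82 and 4.58 CPM in KO NO. WT NO replicate 3 was at the KO level, and the groups overlapped both without RA and after it. Its log2 fold change was 1.74 ± 0.70 in KO RA against WT RA (edgeR adjusted p = 0.242) and 2.11 ± 0.66 without KO RA replicate 3 (adjusted p = 0.0708). Slc7a11, the cystine importer and a known ATF4 target, was low throughout, at 2.54, 1.44 and 0.855 CPM in WT NO, 0.577, 0.873 and 0.812 in WT RA, 2.28, 1.93 and 2.26 in KO NO and 1.49, 1.23 and 1.39 in KO RA. Every KO RA library was above every WT RA library (0.85 ± 0.43, adjusted p = 0.326). Cebpb, a C/EBP partner of ATF4, was at 7.61, 6.54 and 6.71 CPM in WT NO and 14.1, 12 and 14.5 CPM in KO NO, without overlap (0.96 ± 0.42, adjusted p = 0.389). Nupr1, a stress-induced chromatin protein, was at 3.16, 2.11 and 11.7 CPM in KO RA, with replicate 3 highest.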
